A study of Mus musculus with 3 samples.

Results

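The genes described here are 7 that set the tone of blood vessels: Edn1, Ece1 and Ednrb of the endothelin system, Nos3 of nitric oxide synthesis, Ptgs1 and Ptgis of prostacyclin synthesis, and Ace of the angiotensin and kinin system. They were taken by symbol from the 41605 gene rows of the deposited matrices, and each symbol matched 1 row. The 7 were chosen by measured values, with levels in these same libraries already known, so their levels are given as a description and support nothing by themselves. Endothelial cells were sorted from the gastrocnemius muscle, a calf muscle, of C57BL/6N mice as CD31-positive, CD45-negative cells that excluded the dead-cell dye SYTOX blue, and their RNA was counted per single cell. The running library came from mice housed singly with a wheel for 14 days of voluntary running. The sedentary library came from mice housed singly in cages of the same size with no wheel. The third library was labelled as receiving no treatment, with no word on housing in the sources used here. There was 1 library per group. How many animals each library holds, their age and sex, and the day of preparation are not stated there.

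Edn1 encodes the precursor of endothelin-1, a peptide made by endothelial cells that constricts blood vessels by acting on smooth muscle. Endothelin-converting enzyme, the product of Ece1, cleaves the inactive precursor to the active peptide, and the endothelin B receptor, the product of Ednrb, sits on endothelial cells, where it triggers release of nitric oxide and prostacyclin and removes endothelin from the blood. Nitric oxide, made by the endothelial synthase Nos3, and prostacyclin, made by the successive action of Ptgs1 (cyclooxygenase-1) and Ptgis (prostacyclin synthase), relax smooth muscle. Angiotensin-converting enzyme, the product of Ace, makes angiotensin II, a constrictor, and breaks down bradykinin, a dilator.

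The running, sedentary and untreated libraries held 3260, 4079 and 4376 cell barcodes and 5983685, 5625068 and 8002866 unique molecular identifiers (UMIs, each standing for 1 captured RNA molecule). The medians per barcode were 1518, 1122 and 1582 UMIs. After filtering, 11554 cells fell into 14 clusters. Clusters 0, 1, 3, 4 and 5 were capillary-like by their marker genes, clusters 2 and 6 artery-like, 7 and 12 vein-like, and 8 lymphatic-like. The others matched mural cells, fibroblasts, muscle fibres and erythrocytes. The 7 genes and their pathway took no part in the clustering, although Edn1 was still among the 10 leading genes of cluster 2. Every marker of the endothelial list was detected in the capillary-like, artery-like and vein-like classes. The mean score of that list was -0.18 in the mural cluster, beside -0.06 in vein-like cluster 7 and -2.66 in fibroblasts. Mural and endothelial RNA in the mural cluster were not told apart, so its levels are not those of pure mural cells. The summed level of 16 artery markers in the running, sedentary and untreated libraries was 6049.7, 5877 and 5481 CPM (the UMIs of a gene or list, scaled to a common total of all UMIs of the class in that library) in artery-like cells, against 1540.2, 1743 and 1557 CPM in capillary-like cells. The 14 vein markers summed to 6958, 7589 and 7590.5 CPM in vein-like cells, against 1166, 1342 and 1382 CPM in capillary-like cells. The capillary markers separated the classes less, with 23152, 24251 and 25525 CPM in capillary-like cells and 17329, 21202 and 15622 CPM in vein-like cells. Clusters 0, 1, 3 and 5 had none of these markers among their 10 leading genes. Cluster 0 was led by early response genes, cluster 3 by interferon response genes, and cluster 5 by Apln and Plac8. Cluster 5 also had the fewest UMIs per cell of the capillary-like clusters (median 695).

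The capillary-like clusters with the most cells differed between libraries: cluster 0 with 1120 of 2318 in the running library, cluster 5 with 1086 of 2917 in the sedentary library, and clusters 4 and 0 with 706 and 653 of 2198 in the untreated library. The untreated library stood apart, holding 628 cells of cluster 1, against 57 in the running library and 46 in the sedentary library, and batch and treatment cannot be told apart for it. The libraries shared 23 barcodes (running and sedentary), 20 (running and untreated) and 32 (sedentary and untreated). With 1 library per group there is no replicate and no test. Intervals given with values are exact 95% intervals that cover counting error only, and a difference whose interval excludes 0 may still lie within the spread between animals.

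Each of the genes except Ptgis was found in every library, and their vessel patterns differed. Among artery-like, vein-like and capillary-like cells, Edn1 and Ace were highest in artery-like cells, Ptgs1 in vein-like cells and Ednrb in capillary-like cells, while Ece1 and Nos3 differed less between these classes. Over all 11715 barcodes there were 8526 UMIs of Ece1, 5452 of Edn1, 2414 of Ednrb, 2175 of Ace, 1896 of Nos3, 1195 of Ptgs1 and 3 of Ptgis. The 2 contrasts that follow for each gene are between vessel classes within a library and between libraries within a class. The plot of levels by class and library shows the first contrast for each gene.

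**Figure D1:**
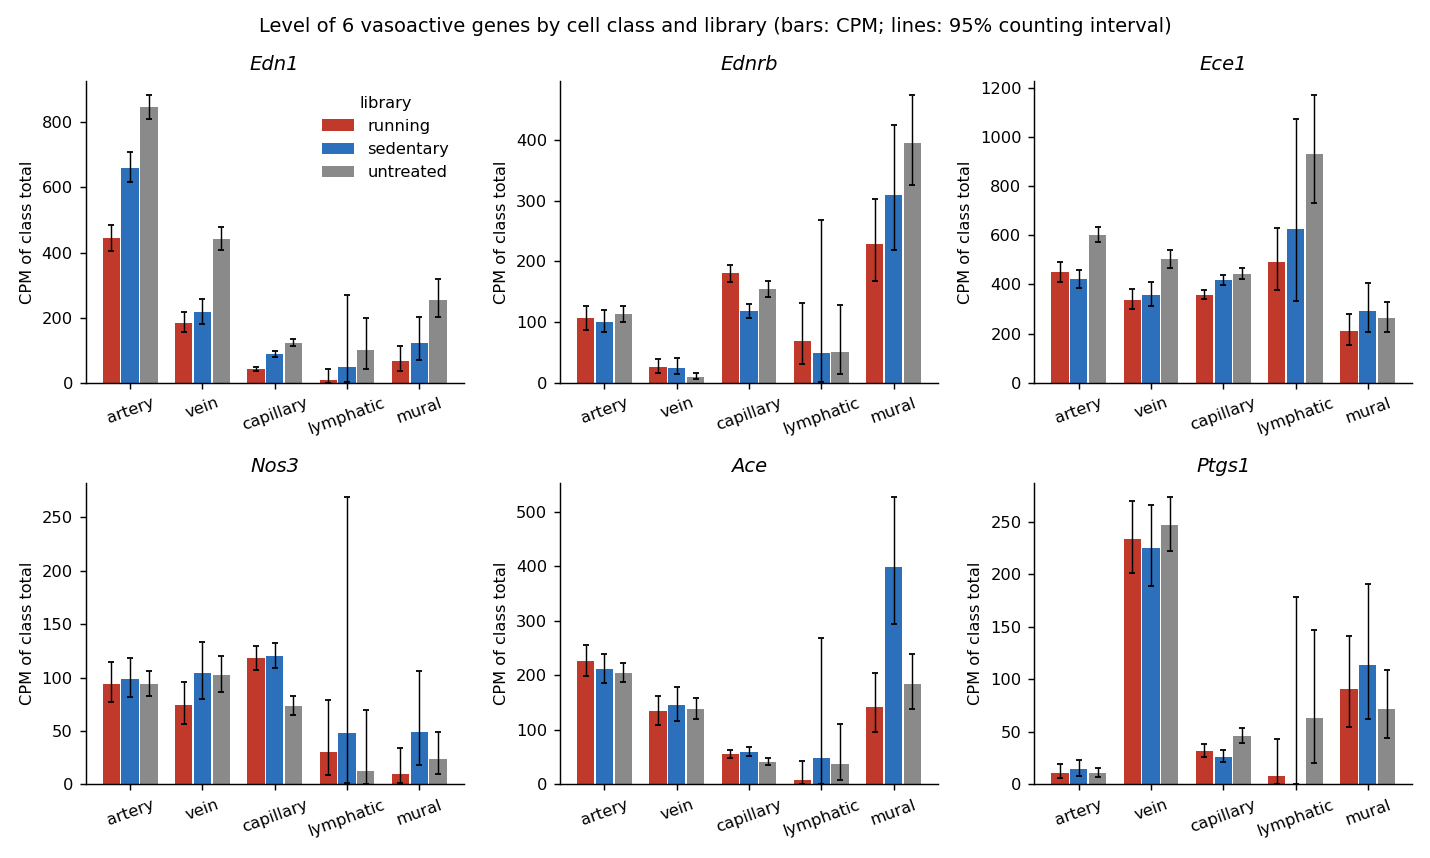
CPM of 6 genes (vertical axis) in 5 cell classes (horizontal axis) of the running, sedentary and untreated libraries; bars are the CPM of the class and lines the exact 95% counting interval. Edn1 bars are tallest in artery-like cells (444 to 847 CPM) and Ptgs1 bars in vein-like cells (225 to 247 CPM), and the lines of lymphatic-like cells are long because that class held 10 to 43 cells per library.

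Edn1 (ENSMUSG00000021367) lies on chromosome 13 from 42301476 to 42307990 on the plus strand (GRCm38). Its level in artery-like cells was 444 CPM in the running library, 661 CPM in the sedentary library and 847 CPM in the untreated library. In vein-like cells it was 185, 217 and 442 CPM in the same order of libraries. In capillary-like cells it was 41.8, 88.2 and 123 CPM. Artery-like cells thus stood above capillary-like cells by 10.6-fold in the running library, 7.48-fold in the sedentary library and 6.88-fold in the untreated library, and vein-like cells above capillary-like cells by 4.41-fold, 2.46-fold and 3.59-fold. The order artery, vein, capillary held in all 3 libraries with intervals that did not overlap. Mural cells had 66.6, 122 and 255 CPM. Their interval overlapped that of capillary-like cells in the running library (36.4 to 112 against 35.4 to 49.1 CPM) and those of both capillary-like and vein-like cells in the sedentary library (68.3 to 201 against 78.7 to 98.5 and 182 to 257 CPM). Lymphatic-like cells had 1, 1 and 8 Edn1 UMIs in all.

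Ace (ENSMUSG00000020681, chromosome 11 from 105967945 to 105989964, plus strand, GRCm38) was the gene of the 7 whose profile over classes and libraries was most like that of Edn1, with a Pearson r of 0.933 over 12 sums. For that reason the 250 bases before the start of each gene are set side by side here, 5′ to 3′, from RefSeq on GRCm38.p6 (Edn1 at chr13:42301226-42301475 and Ace at chr11:105967698-105967947, both plus strand). The last 3 bases of the Ace stretch lie inside the gene as GENCODE places it. Capitals mark matches to CACCC, the core bound by Krüppel-like factors, or to TATAAA, the TATA box, on either strand.
Edn1: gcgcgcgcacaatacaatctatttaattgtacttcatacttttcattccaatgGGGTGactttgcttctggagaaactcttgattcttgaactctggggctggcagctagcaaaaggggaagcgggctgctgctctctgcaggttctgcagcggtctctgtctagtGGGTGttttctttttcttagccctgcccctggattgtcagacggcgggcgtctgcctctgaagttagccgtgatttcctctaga
Ace: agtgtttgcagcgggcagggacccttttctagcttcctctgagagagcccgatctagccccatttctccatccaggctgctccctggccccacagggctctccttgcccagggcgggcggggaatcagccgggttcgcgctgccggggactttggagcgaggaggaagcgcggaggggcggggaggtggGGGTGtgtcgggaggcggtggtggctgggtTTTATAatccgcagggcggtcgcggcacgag
Edn1 had 2 matches to CACCC on the minus strand, which begin 197 and 84 bases before the start, and Ace had 1, 61 bases before it. Ace also had 1 match to TATAAA on the minus strand, 31 bases before the start. A match to CACCC was found in 52.0% and one to TATAAA in 12.4% of the same 250 bases of 32851 RefSeq promoters. Neither stretch held TGANTCA, the letters bound by AP-1, or GATAA, the letters bound by GATA factors, on either strand; 6.75% and 22.6% of promoters did. These matches describe letters and not sites, and bases outside the 2 stretches, also those after the annotated start, were not searched. Ace had 2 promoter entries, of which only the one with the first start was used, and Edn1 had 1. The sources used here held no promoter of Nos3 or Ptgis.

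Edn1 was lower in the running library than in both other libraries in capillary-like and artery-like cells. In capillary-like cells 151 UMIs in the running library, against 312 in the sedentary library and 423 in the untreated library, gave log2 ratios of -1.07 (95% interval -1.37 to -0.79) to sedentary and -1.55 (-1.83 to -1.28) to untreated. In artery-like cells the log2 ratios were -0.57 (-0.74 to -0.41) and -0.93 (-1.07 to -0.79). In vein-like cells the ratio to sedentary was -0.23, with an interval that spanned 0 (-0.58 to 0.12), and that to untreated was -1.26 (-1.528 to -0.998). The sedentary library was itself below the untreated library, with log2 ratios of -0.48 in capillary-like, -0.36 in artery-like and -1.02 in vein-like cells. Both ratios of the running library share its cells, so they are not independent of each other.

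**Figure D2:**
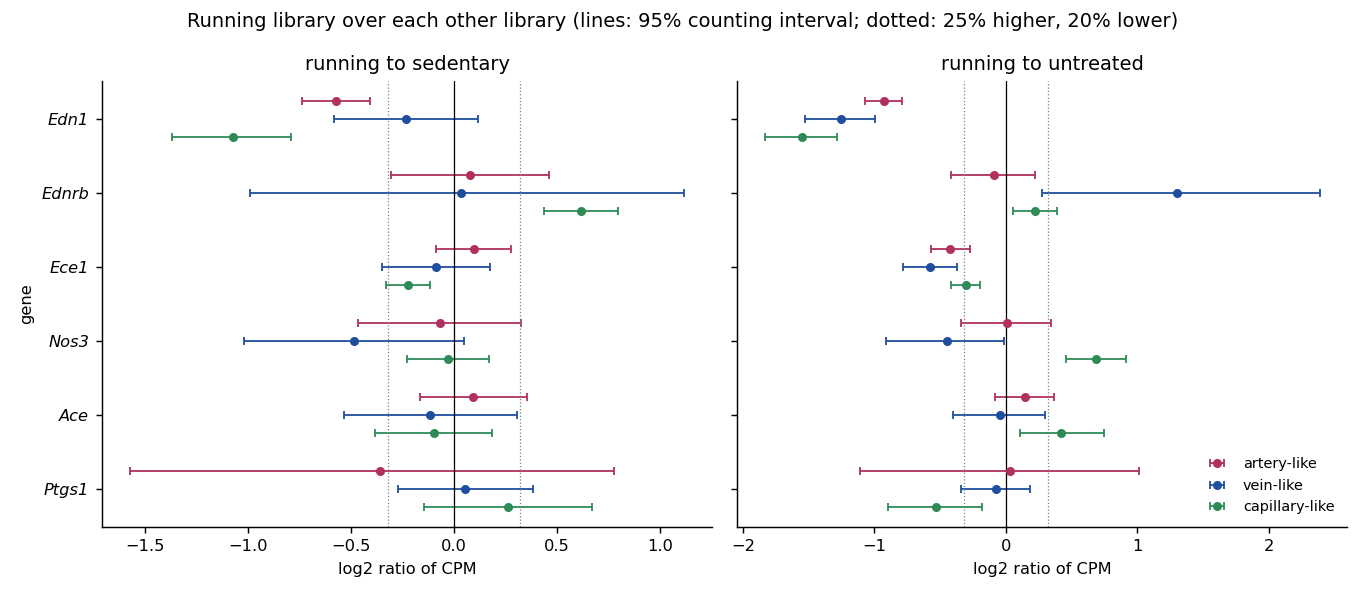
Log2 ratio of CPM (horizontal axis) of the running library over the sedentary library (left) and over the untreated library (right) for 6 genes (vertical axis); points are the ratios in artery-like, vein-like and capillary-like cells, lines the exact 95% counting interval, and dotted lines mark 25% higher and 20% lower. Edn1 lies left of 0 in all 3 classes on both sides, at -1.07 in capillary-like cells on the left, and Ednrb in capillary-like cells lies right of 0 at 0.61 and 0.22.

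The lower Edn1 level was seen in the separate clusters. It was lower in the running than in the sedentary library in 5 of 5 capillary-like clusters, with log2 ratios of -1.87 to -0.42, and in 2 of 2 artery-like clusters, with -0.74 and -0.51. The interval excluded 0 in cluster 0 at -1.21 (-1.57 to -0.86), in cluster 4 at -1.87 (-3.07 to -0.94) and in cluster 5 at -1.34 (-2.24 to -0.57). Cluster 4 had 12.01 CPM in the running library, from 10 UMIs in 553 cells, against 45.8 CPM in the sedentary library and 98.7 CPM in the untreated library. The vein-like clusters went apart. Cluster 7 had 156 CPM in the running library and 331 CPM in the sedentary library, while cluster 12 had 245 CPM in the running library and 94.5 CPM in the sedentary library. In cluster 12 the running library's 62 UMIs came from 19 cells, of which 3 cells held 67.7% and 1 cell held 27 UMIs. Such clumping was not limited to cluster 12. Without thinning, cells with at least 5 Edn1 UMIs held 49.3%, 53.4% and 51.5% of vein-like Edn1 UMIs in the running, sedentary and untreated libraries. They held 41.1%, 35.4% and 54.5% in artery-like cells. In capillary-like cells 4, 10 and 13 cells held 17.2%, 21.8% and 23.2%. The counting intervals of Edn1 do not cover this clumping.

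**Figure D3:**
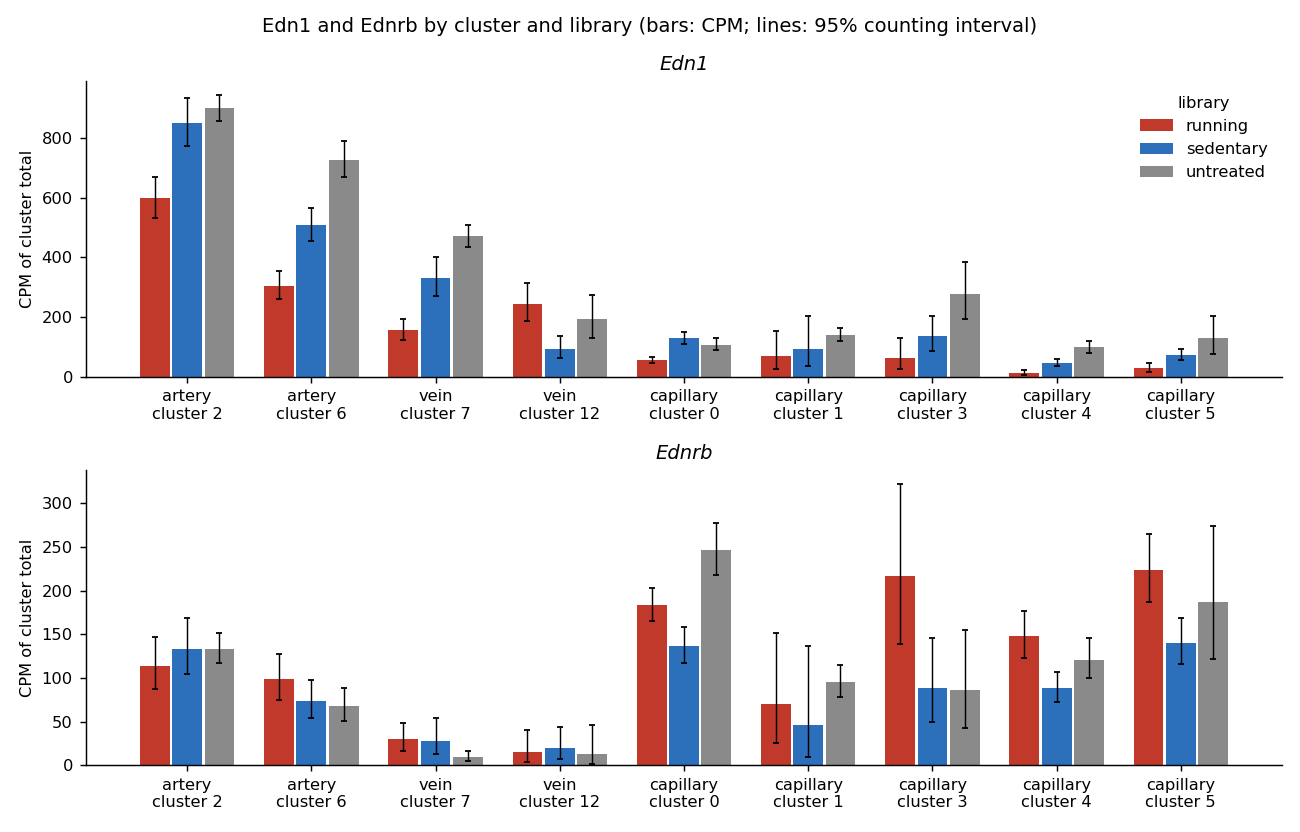
CPM of Edn1 (top) and Ednrb (bottom) on the vertical axis in the 9 artery-like, vein-like and capillary-like clusters (horizontal axis) of the running, sedentary and untreated libraries; bars are CPM and lines the exact 95% counting interval. The running bar of Edn1 is below the sedentary bar in 5 of 5 capillary-like and 2 of 2 artery-like clusters but above it in vein-like cluster 12 (245 and 94.5 CPM), and the running bar of Ednrb is above the sedentary bar in 5 of 5 capillary-like clusters.

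Edn1 differed between clusters of 1 class high or low in early response genes, the genes induced within minutes of stimulation or of tissue dissociation. Among capillary-like cells it was higher in cluster 0, where these genes were high, than in cluster 4, where they were low: 56.2 against 12.01 CPM in the running library (log2 ratio 2.16, 1.29 to 3.33), 130.2 against 45.8 CPM in the sedentary library (1.498, 1.06 to 1.98) and 108 against 98.7 CPM in the untreated library (0.13, -0.28 to 0.53). Among artery-like cells cluster 2, with high early response genes, stood above cluster 6 by 0.97, 0.74 and 0.31 on the log2 scale in the running, sedentary and untreated libraries. Vein-like cells did not follow in every library: cluster 7, with high early response genes, stood above cluster 12 in the sedentary and untreated libraries (1.79 and 1.27) and below it in the running library (-0.65). Summed over 16 early response genes, capillary-like cells had 17705 CPM in the running library, 11971 CPM in the sedentary library and 16387 CPM in the untreated library, and 16 of 16 genes were higher in the running than in the sedentary library. The sum in artery-like cells was 13684, 12391 and 17318 CPM. The paired clusters also differed in other leading genes. Cluster 2 was led by Col8a1 and Tgfb2, and cluster 6 by Mgp and Cytl1. Cluster 7 was led by Selp and Vcam1, and cluster 12 by Lrg1 and Ackr1. The parts of early response genes and of the other leading genes in the Edn1 differences were not tested.

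Few capillary-like cells held Edn1. After each cell was thinned to 1000 UMIs, with shallower cells left out, an Edn1 UMI was found in 3.00% of capillary-like cells of the running library (47 of 1568, interval 2.21% to 3.97%), in 6.54% of the sedentary library (93 of 1422, 5.31% to 7.95%) and in 8.02% of the untreated library (137 of 1709, 6.77% to 9.41%). Thinning left out 750, 1495 and 489 shallower cells. Without thinning the shares were 4.40%, 6.38% and 10.1%, at median depths of 1345.5, 971 and 1439.5 UMIs. In artery-like cells the thinned shares were 28.1% of 424, 35.6% of 500 and 39.5% of 1177 cells, and cells with at least 3 Edn1 UMIs made up 5.42%, 8.0% and 10.6%. Both the share of artery-like cells with Edn1 and the share with several UMIs were thus lowest in the running library, as the plot of cells by Edn1 UMIs shows.

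**Figure D4:**
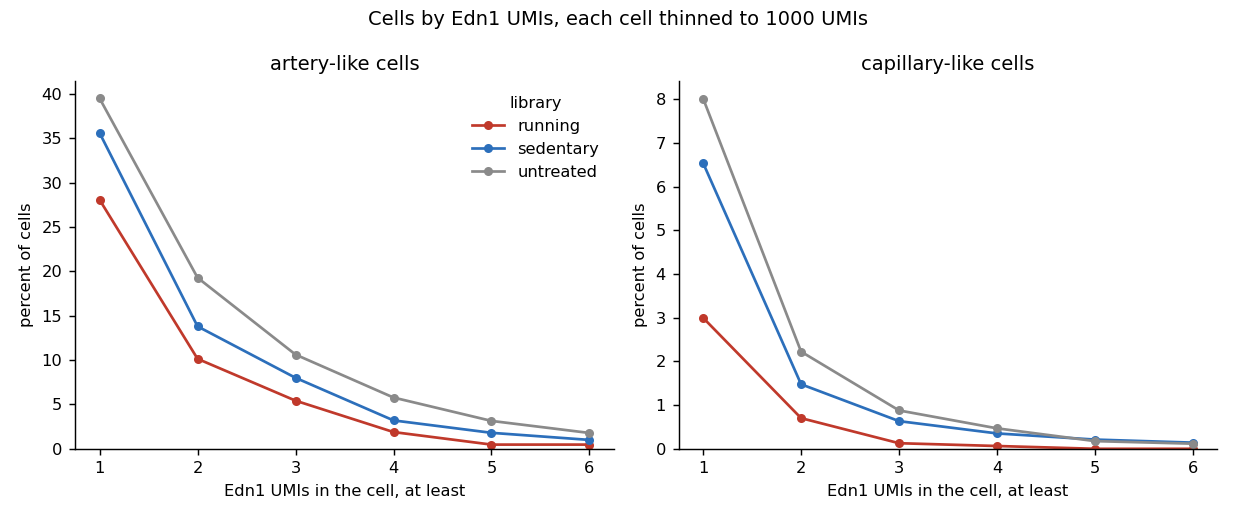
Percent of artery-like (left) and capillary-like (right) cells (vertical axis) that held at least the number of Edn1 UMIs on the horizontal axis, after thinning each cell to 1000 UMIs; lines join the running, sedentary and untreated libraries. The running line starts lowest in both classes, at 28.1% in artery-like and 3.00% in capillary-like cells.

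RNA set free by broken cells can add UMIs to every droplet. In muscle fibre, erythrocyte and fibroblast cells summed as a group, which should lack Edn1, it was at 39.3 CPM in the running library (4 UMIs in 51 cells, 10.7 to 101), 126 CPM in the sedentary library (11 UMIs in 71 cells, 62.9 to 226) and 105 CPM in the untreated library (4 UMIs in 29 cells, 28.7 to 269.5). The capillary-like levels of 41.8, 88.2 and 123 CPM lay within these intervals. The intervals rest on 4, 11 and 4 UMIs and are wide, so they cannot decide how much capillary-like Edn1 was background. Levels also differed inside the class: in the running library capillary-like cluster 4 had 12.01 CPM from 10 UMIs, against 41.8 CPM (35.4 to 49.1) in the class. The unthinned shares of those cells with an Edn1 UMI were 5.88%, 9.86% and 10.3%, at median depths of 996, 663 and 839 UMIs, and the shares of 4.40%, 6.38% and 10.1% in capillary-like cells were not above them. Those cells were no clean blank: the muscle fibre cluster had an endothelial marker score of 0.28, above that of the artery-like cluster 2 at 0.20, and the 3 types together had 49.1, 80.2 and 78.9 CPM of the endothelial gene Nos3. The fibroblasts, with an endothelial score of -2.66, had no Edn1 UMI, but they were 10, 3 and 10 cells. The difference between clusters 0 and 4 exceeded counting error at like depth in the running and sedentary libraries (medians of 1605 and 1375 UMIs, and of 1487 and 1264.5 UMIs), but not in the untreated library. The 16 artery markers, which could come with arterial RNA, summed to 1540.2, 1743 and 1557 CPM in capillary-like cells, with 12 of 16 lower in running than in sedentary. Without the cells that held a UMI of 6 artery markers (28.2%, 29.0% and 19.2% of capillary-like cells in the running, sedentary and untreated libraries) the capillary-like log2 ratio of running to sedentary was -1.17 (-1.61 to -0.74). Edn1 over all kept cells, capillary-like cells included, was at 135, 225 and 425 CPM in the running, sedentary and untreated libraries, the same order as in capillary-like cells. The 5 erythrocyte markers summed to 658, 954 and 74.9 CPM in capillary-like cells, another order. The part of free RNA in the lower capillary-like level was not tested.

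Ece1 (ENSMUSG00000057530, chromosome 4 from 137862237 to 137965229, plus strand, GRCm38) was spread over all endothelial classes. Its level in the running, sedentary and untreated libraries was 449, 420.1 and 602 CPM in artery-like, 337, 359 and 504 CPM in vein-like and 358, 418 and 443 CPM in capillary-like cells. Lymphatic-like cells had 492, 627 and 931 CPM, the top class in each library, with 64, 13 and 74 UMIs; the interval overlapped that of artery-like cells in the running and sedentary libraries. Mural cells were the lowest of these 5 classes, at 209, 293 and 262 CPM. Their interval in the sedentary library (205 to 405 CPM) overlapped that of every other of these classes. Capillary-like Ece1 was lower in the running library by small amounts, with log2 ratios of -0.22 (-0.33 to -0.11) to sedentary and -0.31 (-0.41 to -0.20) to untreated, less than 20% lower in both cases. The ratio to sedentary was -0.41 within cluster 5 but -0.04 within cluster 4, where its interval spanned 0 (-0.26 to 0.17). In artery-like cells the ratios were 0.10 (-0.09 to 0.28) to sedentary and -0.42 (-0.57 to -0.27) to untreated, and in vein-like cells they were -0.09 (-0.35 to 0.18) and -0.58 (-0.79 to -0.38). The sedentary library was likewise below the untreated library in artery-like cells, at -0.52 (-0.67 to -0.37), and in vein-like cells, at -0.49 (-0.71 to -0.27). Ece1 transcripts start at several promoters and share their end, so counting at the 3′ end cannot tell them apart.

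Ednrb (ENSMUSG00000022122, chromosome 14 from 103814625 to 103844402, minus strand, GRCm38) was near the low end in vein-like cells. Capillary-like cells had 180.1 CPM in the running library, 118 CPM in the sedentary library and 154 CPM in the untreated library. Vein-like cells had 25.3, 24.5 and 10.1 CPM, so capillary-like cells stood above them by 6.96-fold, 4.66-fold and 14.7-fold. Artery-like cells lay between at 106, 100.4 and 113 CPM, with an interval that overlapped that of capillary-like cells in the sedentary library. Mural cells, which also express the receptor, had 229, 309 and 395 CPM, above capillary-like cells in each library, with overlapping intervals in the running library. The vein-like level was no higher than the 29.5, 34.4 and 52.6 CPM of muscle fibre, erythrocyte and fibroblast cells together. Those values rest on 3, 3 and 2 UMIs, in cells that were no clean blank. Whether the vein-like level is background was not tested.

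Capillary-like Ednrb was higher in the running than in the sedentary library, and its difference from the untreated library was small and varied between clusters. The 650 UMIs of the running library, against 416 of the sedentary library and 531 of the untreated library, gave log2 ratios of 0.61 (0.44 to 0.80) and 0.22 (0.06 to 0.39). The sedentary library was itself below the untreated library, with a log2 ratio of -0.39 (-0.58 to -0.20). The ratio to sedentary was positive in 5 of 5 capillary-like clusters, from 0.42 in cluster 0 to 1.28 in cluster 3, and its interval excluded 0 in clusters 0, 3, 4 and 5. After thinning to 1000 UMIs an Ednrb UMI was found in 13.5% of capillary-like cells of the running library, 9.92% of the sedentary library and 13.2% of the untreated library. The unthinned shares were 21.1%, 12.03% and 17.8%, against 7.92%, 6.20% and 2.65% in the deeper vein-like cells (medians of 3003.5, 2485.5 and 2519.5 UMIs). Against the untreated library 3 clusters were higher and 2 lower, and cluster 0, the capillary-like cluster with most cells in the running library, was lower with an interval that excluded 0 (-0.43, -0.66 to -0.19). The class ratio to untreated had an interval that included 0 under 7 of 12 alternatives, among them TMM scaling (0.11, -0.06 to 0.27). In artery-like cells the running library differed from neither other library beyond counting error, with log2 ratios of 0.08 (-0.30 to 0.46) and -0.09 (-0.42 to 0.22). In vein-like cells the ratios of the running library were 0.04 (-0.99 to 1.12) to sedentary and 1.31 (0.28 to 2.39) to untreated. They rest on 20 UMIs in the running library and 15 in each of the others. The mural list, which could add Ednrb, summed to 242 CPM in capillary-like cells of the running library, 173 CPM in the sedentary library and 197 CPM in the untreated library, with 9 of 10 markers higher in running than in sedentary, and its part in the Ednrb difference was not tested. Ednrb was also higher in cluster 0, with high early response genes, than in cluster 4, by 0.31 (0.01 to 0.62), 0.63 (0.28 to 0.9998) and 1.02 (0.71 to 1.35) on the log2 scale in the running, sedentary and untreated libraries. The part of early response genes, 16 of 16 of which were higher in capillary-like cells of the running than of the sedentary library, was not tested.

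The ligand and its receptor were found in different shares of the same cells. Among artery-like cells thinned to 1000 UMIs, those with an Edn1 UMI held an Ednrb UMI in 4.20% of 119 cells in the running library, 6.18% of 178 in the sedentary library and 5.59% of 465 in the untreated library. Those without an Edn1 UMI held one in 11.5% of 305, 9.94% of 322 and 12.8% of 712 cells. The first share was lower in all 3 libraries, and the intervals overlapped in the running and sedentary libraries and stood apart in the untreated library (3.68% to 8.09% against 10.4% to 15.5%). In capillary-like cells the shares were 12.8%, 5.38% and 7.30% in cells with an Edn1 UMI and 13.5%, 10.2% and 13.7% in cells without one, with overlapping intervals.

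Nos3 (ENSMUSG00000028978, chromosome 5 from 24364810 to 24384474, plus strand, GRCm38) had no steep vessel order. Artery-like cells had 94.1, 98.7 and 93.8 CPM in the running, sedentary and untreated libraries, vein-like cells 74.6, 104 and 102 CPM and capillary-like cells 118, 120.4 and 73.5 CPM. Neither artery-like nor vein-like cells reached a 2-fold difference from capillary-like cells in any library. Mural cells had 9.52, 48.8 and 23.8 CPM from 2, 6 and 7 UMIs, and lymphatic-like cells 6 UMIs in all. The muscle fibre, erythrocyte and fibroblast cells together had 49.1 CPM (16.0 to 115), 80.2 CPM (32.2 to 165) and 78.9 CPM (16.3 to 231). These intervals held the capillary-like level in the sedentary and untreated libraries, but not in the running library. Capillary-like Nos3 in the running library did not differ from the sedentary library beyond counting error, with a log2 ratio of -0.03 (-0.23 to 0.17) that was 0.46 within cluster 4 and -0.44 within cluster 5, and was above the untreated library, with 0.68 (0.46 to 0.91). The sedentary library was above the untreated one by nearly as much, 0.71 (0.48 to 0.94). Both ratios use the untreated library, in which batch and treatment cannot be told apart. The difference from the untreated library had the same sign in 5 of 5 capillary-like clusters, whereas artery-like cells had a ratio of 0.01 (-0.34 to 0.34) and vein-like cells -0.45 (-0.91 to -0.01).

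Ptgs1 (ENSMUSG00000047250, chromosome 2 from 36230426 to 36252272, plus strand, GRCm38) was highest in vein-like cells. Vein-like cells had 234 CPM in the running library, 225 CPM in the sedentary library and 247 CPM in the untreated library. Capillary-like cells had 31.9, 26.6 and 46.2 CPM, below vein-like cells by 7.33-fold, 8.45-fold and 5.34-fold, and artery-like cells had 11.1, 14.3 and 11.1 CPM, below vein-like cells by 20.3-fold, 15.3-fold and 21.9-fold. Mural cells came next in the running and sedentary libraries, at 90.4 and 114 CPM, while their 71.5 CPM in the untreated library overlapped the capillary-like interval. The muscle fibre, erythrocyte and fibroblast cells together had 9.83 CPM (0.249 to 54.8), 11.5 CPM (0.290 to 63.8) and 52.6 CPM (6.37 to 190.1). These values rest on 1, 1 and 2 UMIs, and their intervals held the capillary-like and artery-like levels. After thinning, 18.8%, 17.8% and 22.8% of vein-like cells held a Ptgs1 UMI, against 0.708%, 1.20% and 1.02% of artery-like cells. The vein-like level did not differ between libraries beyond counting error, with log2 ratios of 0.05 (-0.27 to 0.38) to sedentary and -0.08 (-0.34 to 0.18) to untreated. In capillary-like cells the ratios were 0.26 (-0.14 to 0.67) and -0.53 (-0.89 to -0.18), and cluster 1, which is mostly untreated cells, had 69.0 CPM in the untreated library against 28.1 CPM in cluster 0. Within the 5 capillary-like clusters the ratio to untreated lay between -0.15 and 0.20, with intervals that included 0 in each. The class ratio to untreated turned to 0.61 when each library was clustered alone.

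Ptgis (ENSMUSG00000017969, chromosome 2 from 167191805 to 167240604, minus strand, GRCm38), which makes prostacyclin itself, was all but undetected. Its 3 UMIs were 1 in the artery-like cells of the sedentary library and 2 in the mural cells of the untreated library. There were 0 UMIs in 2318, 2917 and 2198 capillary-like cells of the running, sedentary and untreated libraries, which allows up to 0.831, 0.848 and 0.871 CPM and a share of cells with a UMI of up to 0.129%, 0.103% and 0.136%. No ratio is given for Ptgis.

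Ace had 226, 212 and 205 CPM in artery-like cells of the running, sedentary and untreated libraries, 134, 145 and 139 CPM in vein-like cells and 55.7, 59.6 and 41.5 CPM in capillary-like cells. Artery-like cells stood above capillary-like cells by 4.05-fold, 3.55-fold and 4.91-fold, and vein-like cells above capillary-like cells by 2.41-fold, 2.44-fold and 3.34-fold, with intervals that did not overlap between any of the 3 classes. Unlike Edn1, Ace hardly differed between the running and sedentary libraries, with log2 ratios of 0.09 (-0.17 to 0.35) in artery-like, -0.12 (-0.54 to 0.31) in vein-like and -0.10 (-0.38 to 0.19) in capillary-like cells. The artery-like clusters differed in sign, with 0.49 (0.13 to 0.86) in cluster 6 and -0.34 (-0.72 to 0.04) in cluster 2. Against the untreated library the capillary-like ratio was 0.42 (0.11 to 0.74), but it turned to -0.26 when each library was clustered alone. Mural cells had 143 CPM in the running library, 399 CPM in the sedentary library and 184 CPM in the untreated library, a log2 ratio of running to sedentary of -1.47 (-2.19 to -0.80) that rests on 30 and 49 UMIs in 59 and 54 cells. The muscle fibre, erythrocyte and fibroblast cells together had 98.3 CPM of Ace (47.1 to 181) in the running library, 34.4 CPM (7.09 to 100.5) in the sedentary library and 52.6 CPM (6.37 to 190.1) in the untreated library, intervals that held the capillary-like levels. Of their 10 UMIs in the running library 7 were in fibroblasts.

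Set against all genes, smaller shares passed a 2-fold limit between vessel classes than a limit of 25% higher or 20% lower between libraries. These limits differ, so the shares cannot be ranked against each other. The 7 genes were chosen with their levels in these libraries known, so their place among the vessel shares is a description only. At least 2-fold in each of the 3 libraries, 1.88% of 10012 genes were higher in artery-like than in capillary-like cells, among them Edn1 and Ace, and 1.75% were higher in capillary-like than in artery-like cells, with none of the 7. In the same way 2.43% of 9765 genes were higher in vein-like than in capillary-like cells, among them Edn1, Ace and Ptgs1, and 2.51% were higher in capillary-like than in vein-like cells, among them Ednrb. Between the running and sedentary libraries, of capillary-like genes with at least 20 UMIs, 14.9% were at least 25% higher in running, with Ednrb of the 6 measured members, and 15.5% were at least 20% lower, with Edn1 of these 6. A count of 1 of 6 in each direction is near that background. Fewer genes passed larger limits. Of 5324 genes with at least 200 UMIs, 13 (0.244%) were at least 2-fold lower in running, Edn1 among them. At least 1.5-fold higher were 77 (1.45%), Ednrb among them. These limits lie just under the members' own values, 2.10-fold lower for Edn1 and 1.53-fold higher for Ednrb. Since the genes were also chosen with these ratios known, the shares are a description and no measure of rarity. Between the running and untreated libraries 31.6% of capillary-like genes were higher, with Nos3 and Ace, and 18.4% lower, with Edn1 and Ptgs1. In artery-like cells 19.2% of genes were higher in running than in sedentary, with none of the 7, and 17.8% lower, with Edn1 and Ptgs1, the second on 12 UMIs in the running library and 17 in the sedentary library. Against the untreated library 29.7% of artery-like genes were higher, with none of the 7, and 21.6% lower, with Edn1 and Ece1.

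The wider pathway was a list of 61 genes, of which 29 had at least 20 UMIs in capillary-like cells of the running and sedentary libraries. Running against sedentary, 3 were at least 25% higher and 6 at least 20% lower, with a median log2 ratio of -0.10, against 14.9%, 15.5% and -0.01 over all genes. Running against untreated, 14 were higher and 3 lower, with a median of 0.30, against 31.6%, 18.4% and 0.11 over all genes. TMM scaling moved the median of the list to 0.18 and that of all genes to -0.01. Without the 7 genes the counts were 2 higher and 5 lower to sedentary, and 12 higher and 1 lower to untreated, of 23. Many genes of the pathway had no UMI in these cells in any library, among them Edn2 and Edn3 (the other endothelins), Ptgs2 (the inducible cyclooxygenase) and Ptges (a prostaglandin E synthase).

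Of the nitric oxide genes, Cav1, whose product caveolin-1 binds and restrains the synthase, had 2722 CPM in the running library, 2928 CPM in the sedentary library and 3129 CPM in the untreated library. Ddah2, of the family that breaks down methylarginine inhibitors of the synthase, had 102, 92.7 and 118 CPM. Nostrin, which takes part in trafficking of the synthase, had 7.21 CPM in the running library from 26 UMIs, above 2.83 CPM in the sedentary and 3.19 CPM in the untreated library. Slc7a1, an arginine transporter, had 28.8, 21.5 and 15.7 CPM; its log2 ratio to sedentary was 0.42 with an interval that spanned 0 (-0.02 to 0.87). Pde5a, which breaks down cyclic GMP, the messenger of nitric oxide, had 2.49, 3.67 and 4.94 CPM from 9, 13 and 17 UMIs, with log2 ratios of -0.54 (-1.97 to 0.78) to sedentary and -0.95 (-2.33 to 0.26) to untreated whose intervals spanned 0. These 3 were the genes outside the 7 whose level was past these margins in 1 direction from both other libraries.

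Of the prostanoid genes, Ptges3, a cytosolic prostaglandin E synthase, had 162, 144 and 146 CPM in the running, sedentary and untreated libraries, and Ptger4, a prostaglandin E receptor, 103, 104 and 53.4 CPM. Prcp, a carboxypeptidase that acts on angiotensin II, had 136, 116 and 164 CPM. Npr1, the receptor of the natriuretic peptides ANP and BNP, had 149, 167 and 115 CPM. Among these 4, Ptger4 differed most between running and untreated, with a log2 ratio of 0.95 (0.69 to 1.21), beside -0.01 to sedentary.

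The genes whose profile over 12 sums (capillary-like, artery-like, vein-like and lymphatic-like cells in 3 libraries) was most like that of a member were found among 9165 genes by Pearson r of log2(CPM + 1). For Edn1 they were Lima1 (r = 0.959), Ace (0.933) and Trim47 (0.918), and for Ace they were Lima1 (0.973), Edn1 (0.933) and Trim47 (0.910). For Ptgs1 they were Il1r1, the interleukin-1 receptor (0.967), Sowahc (0.936) and Lhx6 (0.933). For Ednrb they were Tubb2a (0.934), Sipa1 (0.922) and H1f0 (0.898). For Ece1 they were Cd47 (0.964), R3hdm4 (0.901) and Arl13b (0.899). For Nos3 they were Unc45b (0.976), Btbd1 (0.969) and Adgrg1 (0.967). The sums share libraries, and those of lymphatic-like cells rest on 10 to 43 cells, so these values describe likeness only.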

How the data were processed

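Single-cell RNA was captured with the 10x Chromium 3′ kit, version 2, per the labels' protocols. Reads were processed with Cell Ranger 2.0.2 on GRCm38.p5, per the submitters' processing notes; the annotation release is not given in the sources used here. The authors deposited 1 matrix of raw UMI counts per library, with 41605 gene rows.

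Cells with at least 300 genes and at most 10% mitochondrial UMIs were kept. Scrublet in scanpy 1.11.5 marked 0 of 11554 cells, so it is not taken to have worked and doublets were not removed. Log-normalised counts of 1989 variable genes, without the 7 genes and their pathway, gave 30 principal components, a graph of 15 neighbours and Leiden clusters at resolution 1.0, all 3 libraries together. Clusters were named from 14 fixed marker lists by mean scores. A vessel class needed a score of 0.3, another type 1.0, and either at least 3 detected markers; these limits were set after seeing the data. Names were rebuilt here and may differ from the study's own.

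UMI counts were summed by class and library and divided by the class total (CPM). Log2 ratios used a prior count of 0.5, with exact conditional binomial intervals, and shares of cells exact Clopper-Pearson intervals at 95%. A value of 0 was given the limit that 3 counts allow. UMIs in a library are not independent draws from animals, so intervals and limits cover counting error only. No test was made, since each group had 1 library. The ratio step was tested on simulated data. Thinning drew 1000 UMIs per cell. Software was Python 3.11.15, numpy 2.4.6, scipy 1.17.1, pandas 2.3.3 and, for TMM factors, edgeR 4.0.16.

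The members and lists were chosen with earlier results of these data known. Named genes were the 7, the 6 other pathway genes with most UMIs in capillary-like cells, those at least 25% higher or 20% lower in running than in both other libraries with at least 20 UMIs, and for each member the 3 genes with the highest r, leaving out mitochondrial and ribosomal protein genes and models known by a number. The alternatives were other cell and gene filters, clusterings, scalings, prior counts, folds and thinning depths.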

Additional observations from a re-analysis of the deposited data

Results flagged for a closer look

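The running to sedentary log2 ratio of Edn1 had opposite signs in the 2 vein-like clusters, -1.083 in cluster 7 (84 and 105 UMIs) and 1.359 in cluster 12 (62 and 28 UMIs), and neither interval included 0. In cluster 12 of the running library 3 cells held 67.7% of the Edn1 UMIs. Few cells also held much of the Edn1 in vein-like cells of the sedentary library, where 8 of 242 cells held 53.4%. The ratio of Nos3 had opposite signs in 2 capillary-like clusters, 0.4626 in cluster 4 (128.5 and 93.3 CPM) and -0.4404 in cluster 5 (122.6 and 166.9 CPM), where cells of cluster 5 had the lower median of UMIs (695 against 1285). These 2 clusters also differed in leading genes, with Car4 and Car8 in cluster 4 and Apln and Plac8 in cluster 5. Both contrasts come from 1 running and 1 sedentary library, and the difference between clusters was not tested.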

How the results depend on the processing

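Of 271 values recomputed under alternatives, 212 moved by less than the counting interval of the value reported or stayed within 1.5 times the count, 57 moved further and 2 turned from a ratio whose interval excluded 0 to the opposite sign. Of the 14 ratios whose interval included 0, the sign also changed under 15 of 78 alternatives, 7 of them for Nos3 in capillary-like cells. In capillary-like cells the running to sedentary log2 ratio kept its sign under 15 of 15 alternatives for Edn1 (-2.09 to -1.04), Ednrb (0.42 to 0.94), Ece1 (-0.41 to -0.01) and Ptgs1 (0.16 to 0.80), under 14 for Ace and under 8 for Nos3. Edn1 in vein-like cells ranged from -0.18 to 0.06 under 3 alternatives. With a minimum of 500 genes the ratios were 0.94 for Ednrb, -0.011 for Ece1 and 0.20 for Nos3. Edn1 came to -2.09 with each library clustered alone and to -1.45 without the highest 5% of doublet scores. Chosen after seeing the data were the fits without cells that hold artery UMIs, without cluster 5 (Ece1 -0.094), within cluster 0 (Ednrb 0.42, Ece1 -0.095, Ptgs1 0.80), within cluster 4 (Edn1 -1.87, Ece1 -0.043, Nos3 0.46) and within cluster 5 (Ece1 -0.41, Nos3 -0.44). Running to untreated, Ace turned to -0.26 and Ptgs1 to 0.61 with each library clustered alone. Members higher than untreated numbered 1 under TMM scaling, a fold of 1.5, Leiden resolution 2.0 or members kept among the variable genes, and members lower numbered 1 under a fold of 1.5, resolution 2.0 or without the highest 5% of doublet scores. Members higher than sedentary numbered 2 with a minimum of 500 genes, with early response genes left out of the variable genes, with each library clustered alone and without the highest 5% of doublet scores. Of the pathway list, a fold of 1.5 left 2 lower than sedentary and 9 higher than untreated, and no minimum of UMIs gave 8 higher and 13 lower than sedentary and 8 lower than untreated. The shares of all genes at these settings are not given here, so these counts are a description, and the cause of these changes was not tested. Leiden resolution 0.5 gave no artery-like class, and the doublet alternative left 1121, 2012 and 851 capillary-like cells in the running, sedentary and untreated libraries. No paired analysis was possible because each group had 1 library. Depth limits the small sums, among them the 10 Edn1 UMIs of cluster 4 in the running library.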
